A study of Homo sapiens with 60 samples.

Results

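The proteasome genes examined here are the protein-coding genes whose symbol begins with PSMA, PSMB, PSMC, PSMD, PSME, PSMF or PSMG and a number. The rule took 50 of the 60675 genes in the count table. Of these, 48 had enough reads to be tested, among 16675 genes tested in all. The exceptions were PSMA8, a testis form of a 20S alpha subunit, with 0 counts in 60 libraries, and PSMB11, the beta subunit of the thymus, with 19 counts spread over 17 libraries. PSMC3IP and PSME3IP1 are no subunits but are named for a protein they bind, so they were described apart.

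RNA came from HepG2, a line grown from a human liver tumour that still makes many hepatocyte proteins, after 24 h with 1 of 8 ethanol extracts of herbs or herbal formulas. Coptidis Rhizoma was given at 11.2, 56 and 280 µg/mL. Zizyphi Fructus, which shares its set number in the titles (the batch letter of both extracts differs between titles and descriptions, in the same way), was given at 20, 100 and 500 µg/mL, and each dose of these extracts had 2 libraries. Citri Unshius Pericarpium and Cimicifugae Rhizoma (both 20, 100 and 500 µg/mL, 3 libraries a dose) form another set, and Bupleuri Radix (11.2, 56 and 280 µg/mL) with Aconiti Lateralis Radix Preparata (20, 100 and 500 µg/mL, 3 libraries a dose) a further set. The formulas Yijung-tang (2 libraries a dose) and Banhasasim-tang (1 library a dose) were given at 20, 100 and 500 µg/mL and share the last set. The 3 vehicle libraries received DMSO alone, at 0.1% in the sample labels and 2% in the series text, and carry a set name of their own. Where growth was inhibited below the top dose of 500 µg/mL, as for Coptidis and Bupleuri, the study took its IC20 as the high dose, so the high doses of those 2 extracts were chosen for a measured effect on growth. Doses are called low, medium and high below.

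The proteasome is the protease that degrades proteins tagged with ubiquitin. Its barrel, the 20S core, has outer rings of alpha subunits (PSMA) that gate the entrance and inner rings of beta subunits (PSMB), of which PSMB5, PSMB6 and PSMB7 carry the active sites. The 19S regulatory particle binds the tagged protein, removes the ubiquitin and unfolds the chain with its ATPases (PSMC) and non-ATPase subunits (PSMD). In cells exposed to interferon, PSMB8, PSMB9 and PSMB10 take the places of the active subunits and form the immunoproteasome, and PSME1 and PSME2 form PA28, an activator that caps the core in place of the 19S particle. PSME3 and PSME4 are other activators, PSMF1 is an inhibitor, and PSMG1 to PSMG4 with PSMD5, PSMD9 and PSMD10 are chaperones that help the particle assemble. Hepatocytes use the system to turn over a large protein load, and its genes are known to rise together when proteasome activity falls short.

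Libraries held 18015555 to 29549531 counts. All 10 markers of HepG2 cells were expressed, led by ALB (the albumin gene) with 7350 to 12000 CPM (counts scaled by TMM to a library total of 1000000), whereas PTPRC, which marks blood cells, was at 0 in 60 libraries and CD3E, which marks T cells, at 0 in 58. Of the 9 markers of other cells 6 were expressed in every library, the highest being CD68 (20.1 to 79.9 CPM), PDGFRB (4.24 to 16.4) and PECAM1 (1.89 to 4.71). The third low-dose library of Bupleuri stood apart: 22.4% of genes lay more than 1.5-fold from the vehicle mean, and its values followed transcript length with a correlation across genes of −0.60. The low-dose library of Banhasasim-tang also stood apart, with 60.9% of genes past 1.5-fold and a correlation with GC content of 0.79. Such a correlation was not particular to it, as the first low-dose library of Citri had 0.72. With Coptidis the correlation was 0.44 and 0.63 at the low dose and 0.093 and 0.11 at the high dose. Many results that rest on the outlying Bupleuri or Banhasasim-tang library are given with and without it. Bupleuri values without such a mark include the third low-dose library. That library also enters the fit shared by all groups, and counts for the other extracts without it are given in the closing sections. The labels do not say that libraries of a group came from separate cultures, so the p-values reflect library-to-library spread alone, and this spread may be technical. RNA was taken from whole cultures, so fewer cells of a kind and less RNA per cell cannot be told apart.

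In vehicle-treated cells the constitutive subunits were abundant and the immunoproteasome subunits scarce. Levels between genes were compared as CPM per kilobase of the principal transcript, a single annotated transcript of each gene. Its length was 1029 bases for PSMA6 and 1294 for PSMB5, beside 6506 and 1765 over all exons. The order of genes and the medians by role therefore depend on this choice. By this measure the highest level was that of PSMA6, a 20S alpha subunit, at 477 ± 11 CPM per kb (SD, n = 3). It was followed by PSMB5, the subunit with chymotrypsin-like activity, at 339 ± 15.5 and PSMA7 at 258 ± 12.3 CPM per kb. The lowest tested gene was PSMB9 at 7.13 ± 0.841 CPM per kb. By role, the median level was 145 CPM per kb for the constitutive 20S beta genes, 84 for the 20S alpha genes, 55.9 for the 19S ATPases, 74.4 for the 19S non-ATPases and 11 for PSMB8, PSMB9 and PSMB10. PA28 did not share the low level of the immunoproteasome subunits: PSME1 was at 184 to 188 CPM and PSME2 at 218 to 228 CPM in the vehicle libraries. The summed level of all members was 6392 ± 97.9 CPM (SD, n = 3).

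Between the low and the high dose of an extract, which share a set, the number of proteasome genes that passed edgeR's quasi-likelihood test (Benjamini-Hochberg adjusted p under 0.05) ran from 0 to 27 of 48. With Coptidis 12 genes rose and 15 fell, against 30.9% of all genes tested that rose and 29.3% that fell, so the share of members called was near that of all genes. With Bupleuri 10 rose and 8 fell (background 20.2% and 20%), and when low-dose replicate 3 was left out 26 rose and 6 fell (17.8% and 17.4%). With Yijung-tang 13 rose and none fell, against 3.98% and 3.31% of all genes. With Cimicifugae 5 rose and none fell (4.41% and 2.73%), with Citri 1 rose (0.252%; 0.528% of all genes fell), and with Aconiti none rose and 3 fell (6.77% and 7.83%). Zizyphi gave no call among the members, DESeq2 also called 0, none had an unadjusted p under 0.05 (0 members), and 0.006% of all genes passed.

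**Figure D1:**
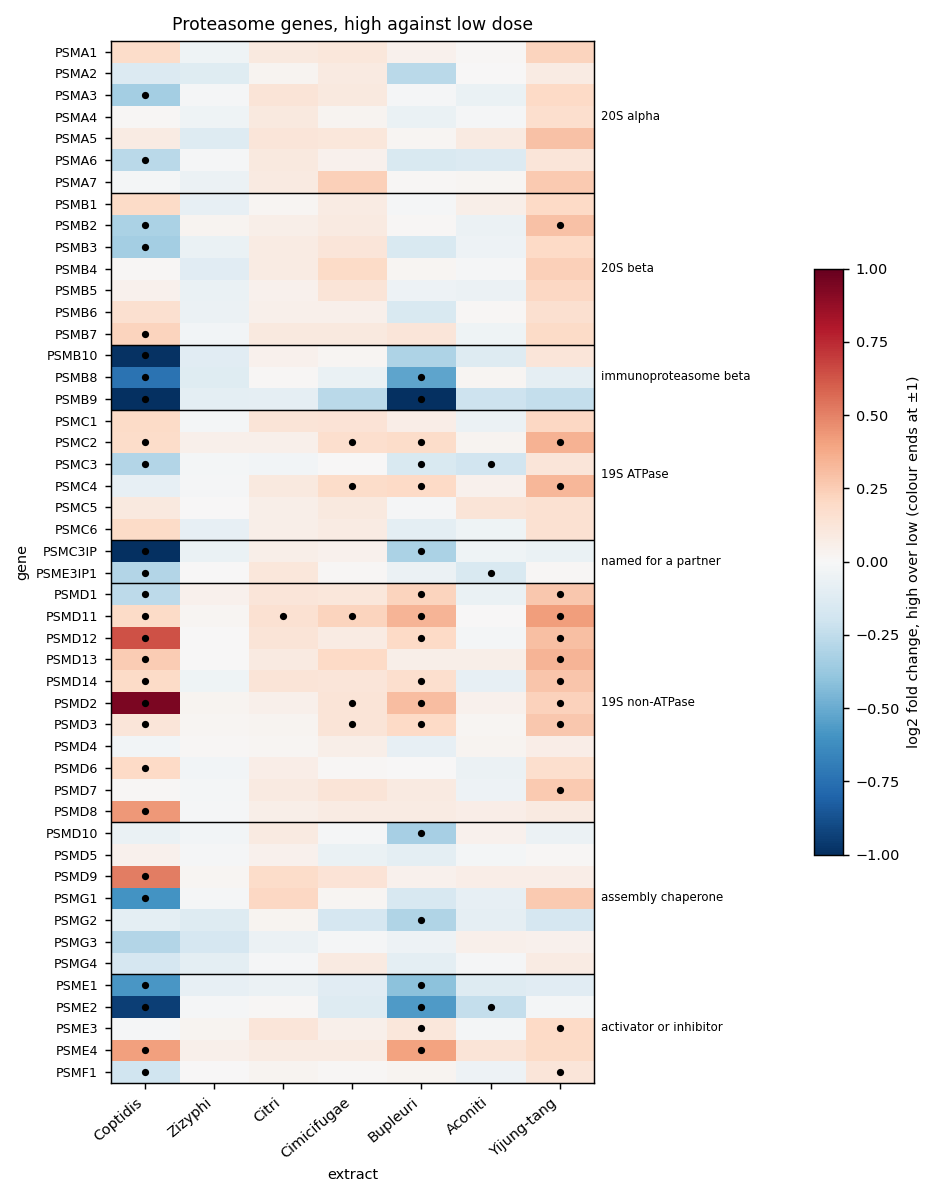
Log2 fold change of the 48 tested proteasome genes (rows, grouped by role) between the high and low dose of 7 extracts (columns); red is higher and blue lower at the high dose, the colour ends at ±1 on the log2 scale, and a black dot marks an adjusted p under 0.05. The blue block with Coptidis and Bupleuri holds PSMB8, PSMB9, PSME1 and PSME2, while the 19S non-ATPase rows are mostly red with dots for Coptidis, Bupleuri and Yijung-tang.

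The immunoproteasome subunits and PA28 fell together with Coptidis. All 5 genes (PSMB8, PSMB9, PSMB10, PSME1 and PSME2) were lower at the high than at the low dose, where 29.3% of all genes fell. Their median log2 fold change was −0.94 beside −0.01 over all genes tested and 0.10 over the 31 constitutive 20S and 19S genes. With Bupleuri 4 of the 5 fell (median −0.53, 20% of all genes), PSMB10 being the exception. Without the third low-dose library 4 fell (median −0.29, 17.4% of all genes). With Aconiti PSME2 alone fell (7.83% of all genes), and none of the 5 passed the test with the other 4 extracts.

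PSMB9 (chr6:32844136-32859585, plus strand, GRCh38) encodes the immunoproteasome subunit that replaces PSMB6 and moved the most. It stood at 5.07, 5.34 and 6.32 CPM in the vehicle libraries. With Coptidis it was at 3.46 and 4.03 CPM at the low dose, 1.34 and 1.45 at the medium dose and 0.576 and 1.13 at the high dose, from 88 and 75 counts down to 11 and 22 counts. The 3 doses did not overlap. The fall from low to high was 4.33-fold (log2 fold change −2.12, SE 0.29, adjusted p = 2.23e-08), and from low to medium the log2 fold change was −1.41. With Bupleuri PSMB9 was at 5.07, 5.33 and 7.61 CPM at the low dose, 4.58 to 5.7 at the medium dose and 2.85, 2.4 and 3.17 at the high dose, so the fall lay between the medium and the high dose. It was 2.14-fold (−1.10, SE 0.17, adjusted p = 5.23e-07), and without the highest of the low-dose libraries the log2 fold change was −0.90 (SE 0.17, adjusted p = 1.51e-05). PSMB9 was at 4.35 and 4.64 CPM with Yijung-tang at the low dose and 4.03 and 3.58 at the high dose, a difference that did not pass the test (−0.24, SE 0.20, adjusted p = 0.609). PSMB9 was below the level of 5 CPM set for naming genes with Coptidis, and was described there after its values were seen.

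PSMB10 (chr16:67934502-67937087, minus strand), which replaces PSMB7, was at 15.4 and 19.5 CPM with Coptidis at the low dose, 12.2 and 15.8 at the medium dose and 7.85 and 9.58 at the high dose. The high-dose libraries lay below both low-dose libraries, and the fall was 1.98-fold (−0.99, SE 0.19, adjusted p = 2.37e-05). The vehicle libraries were at 12.9 to 13.9 CPM, so the low-dose level was above the vehicle and the high-dose level below it. With Bupleuri PSMB10 was at 17.4, 17.5 and 30.8 CPM at the low dose and 15.4 to 19.4 at the high dose, where the ranges overlap. The outlying value is that of the third library, and without it the log2 fold change was 0.01 (adjusted p = 0.96).

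PSMB8 (chr6:32840717-32844703, minus strand), which replaces PSMB5, was at 20.2 and 26.5 CPM with Coptidis at the low dose and 13.4 and 14.3 at the high dose, a 1.67-fold fall (−0.74, SE 0.14, adjusted p = 1.74e-05). With Bupleuri it was at 24.2, 24.5 and 38.2 CPM at the low dose and 20.7, 18.7 and 20.7 at the high dose. The high-dose libraries were below all low-dose libraries, and the log2 fold change was −0.53 (SE 0.11, adjusted p = 7.44e-05), or −0.29 (SE 0.09, adjusted p = 0.00612) without the third low-dose library. PSMB8 and PSMB9 lie on opposite strands with exons that overlap, their annotated spans share 568 bases, and PSMB8 held 523% of the counts of PSMB9. PSMB8-AS1, on the strand of PSMB9, held a further 17.7%. The sources used here do not say whether the authors' counting used strand, so the split of reads among these genes is uncertain. The other genes of this result share the limit. PSMB10 overlaps exons of another gene on its own strand, which held 34% of its counts. On the opposite strand RNF31 held 43.1% of the counts of PSME2, which it overlaps, and EMC9 held 23.4% of those of PSME1. Members described below share the limit too, among them PSMG2, PSME3 and PSMD13. On the opposite strand SPIRE1 held 101% of the counts of PSMG2, BECN1 37.2% of those of PSME3 and SIRT3 20.8% of those of PSMD13.

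PA28 fell with the immunoproteasome subunits although it is far more abundant. PSME2 (chr14:24143362-24147570, minus strand) was at 201 and 218 CPM with Coptidis at the low dose, 155 and 169 at the medium dose and 107 and 112 at the high dose. No doses overlapped, and the fall was 1.92-fold (−0.94, SE 0.08, adjusted p = 3.3e-13). With Bupleuri PSME2 was at 228, 231 and 323 CPM at the low dose and 175, 169 and 182 at the high dose (−0.57, SE 0.07, adjusted p = 1.96e-09), and without the third low-dose library the log2 fold change was −0.39 (SE 0.05, adjusted p = 3.28e-10). With Aconiti the high-dose libraries at 196, 202 and 208 CPM lay below the low-dose libraries at 230, 232 and 255 (−0.24, SE 0.07, adjusted p = 0.00912). PSME1 (chr14:24136158-24138967, plus strand), its partner in the PA28 ring, lies 4394 bases away. It was at 173 and 185 CPM with Coptidis at the low dose and 114 and 125 at the high dose, a 1.5-fold fall (−0.58, SE 0.10, adjusted p = 2.29e-06). With Bupleuri PSME1 changed by −0.41 (SE 0.08, adjusted p = 5.12e-05), or −0.19 (SE 0.05, adjusted p = 0.00293) without the third low-dose library, with high-dose libraries of 162 to 171 CPM below low-dose libraries of 188, 189 and 284.

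**Figure D2:**
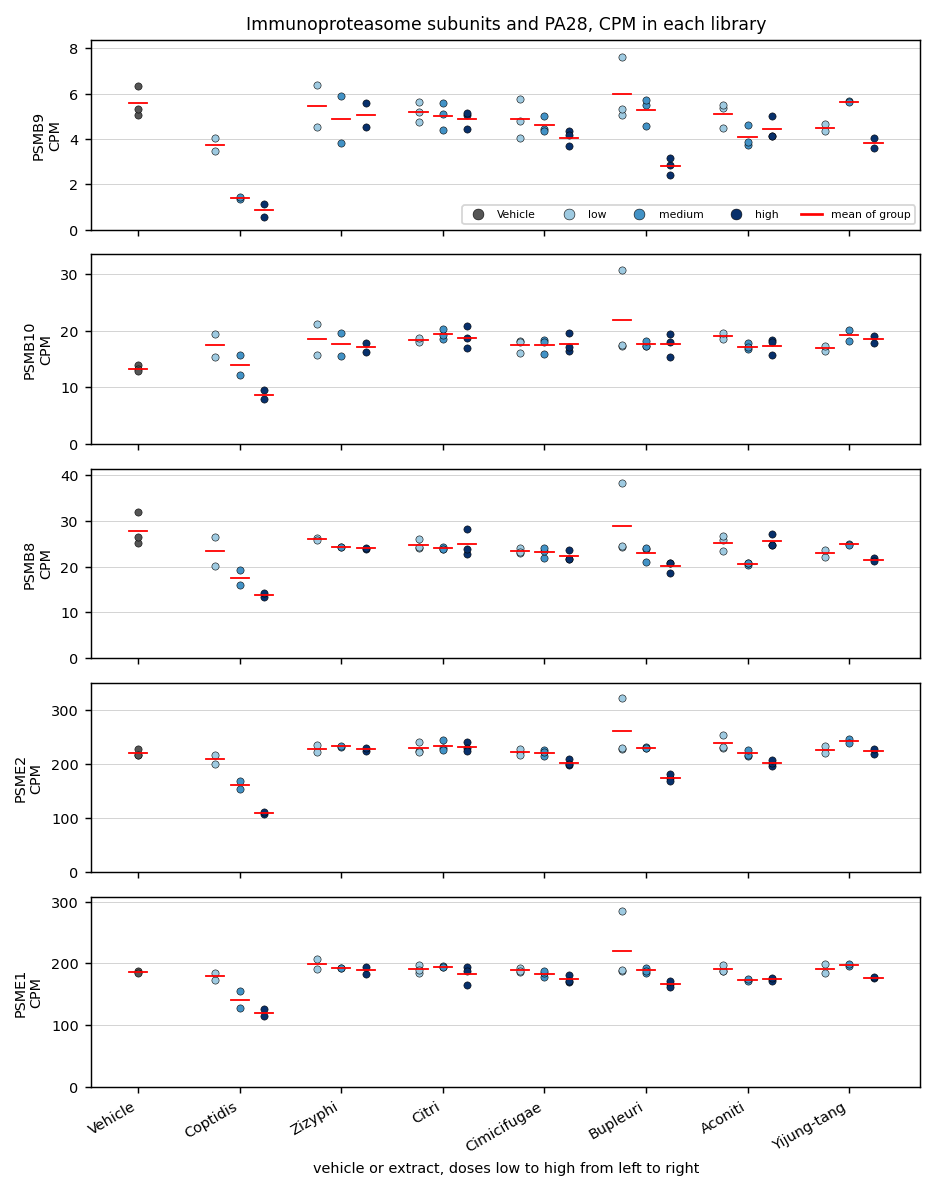
TMM-scaled CPM (linear axis from 0) of PSMB9, PSMB10, PSMB8, PSME2 and PSME1 in each library of the vehicle and 7 extracts; points are libraries coloured by dose, and red bars are group means. With Coptidis PSMB9 steps down from 3.46 and 4.03 CPM to 0.576 and 1.13, and the third Bupleuri low-dose library is the high point in each panel.

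The promoters of these genes were read because the 5 genes moved together, and they are shown with the core of the interferon-stimulated response element in capitals, that is GAAA, any 2 bases, and GAAA again. This motif was added after it was seen which members fell. It was searched on both strands of RefSeq promoters (GRCh38.p14, 250 bases before to 50 after a start). The letters were found in 3.57% of 35116 promoters (4.38% of symbols) and in 7 of 44 members with a promoter (15.9%). Among these members are 4 of the 5 genes. The others, PSMA4, PSMB4 and PSMG4, were not called with Coptidis from low to high dose (log2 fold change 0.01, 0.01 and −0.17). The bases are printed on the strand of the gene, and TTTCGCTTTC is the motif read on the other strand.
PSMB8 chr6:32844032-32844061, minus strand, match from −4 to +6 of the second of its 2 starts: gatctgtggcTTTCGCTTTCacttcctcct
PSME1 chr14:24136189-24136218, plus strand, match from +6 to +15: gccctaccgcTTTCGCTTTCccttcgcggt
PSMB10 chr16:67936851-67937100, minus strand, match from −21 to −12: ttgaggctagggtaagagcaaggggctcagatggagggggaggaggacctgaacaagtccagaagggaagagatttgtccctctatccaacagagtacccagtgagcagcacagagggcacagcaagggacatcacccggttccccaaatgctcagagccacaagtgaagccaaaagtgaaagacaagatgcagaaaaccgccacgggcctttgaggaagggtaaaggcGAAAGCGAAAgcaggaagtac
PSME2 chr14:24146611-24146860, minus strand, match from −28 to −19: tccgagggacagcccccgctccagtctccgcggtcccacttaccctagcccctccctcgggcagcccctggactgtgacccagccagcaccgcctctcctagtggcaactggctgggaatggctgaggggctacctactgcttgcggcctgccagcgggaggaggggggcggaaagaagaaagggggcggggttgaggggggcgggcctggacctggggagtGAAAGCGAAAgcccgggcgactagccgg
The 4 matches share the letters GAAAGCGAAA, and all lie within 28 bases of a start. The letters are not in the window of PSMB9. No other motif searched overlapped the capitals. A match is a description of these letters, and binding was not measured.

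The 19S non-ATPase subunits were the group in which most members rose. With Coptidis 8 of 11 rose and 1 fell, against 30.9% and 29.3% of all genes. With Yijung-tang 8 rose and none fell (3.98% and 3.31% of all genes). With Bupleuri 6 rose and none fell (20.2% and 20%), and 9 rose without the third low-dose library (17.8%). PSMD2 (chr3:184298709-184309054, plus strand), the RPN1 subunit on which shuttle proteins and ubiquitin dock, was at 266, 281 and 265 CPM in the vehicle libraries. With Coptidis it was at 284 and 289 CPM at the low dose, 335 and 369 at the medium dose and 551 and 549 at the high dose. The doses did not overlap, and the rise from low to high was 1.92-fold (0.94, SE 0.04, adjusted p = 9.48e-24). With Bupleuri PSMD2 went from 268, 273 and 275 CPM to 336, 334 and 342 (0.31, SE 0.03, adjusted p = 2.88e-10), and with Yijung-tang from 274 and 278 to 325 and 321 (0.23). The rise with Coptidis was the largest of any member in these 7 comparisons.

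PSMD12 (chr17:67337916-67366627, minus strand), the RPN5 subunit of the lid, was at 104 and 98.5 CPM with Coptidis at the low dose, 106 and 123 at the medium dose and 152 and 164 at the high dose. Both high-dose libraries were above the medium dose, and the rise over the low dose was 1.56-fold (0.64, SE 0.06, adjusted p = 7.99e-13). It rose by 0.30 with Yijung-tang and by 0.20 with Bupleuri on the log2 scale. Its vehicle libraries stood at 118 to 126 CPM, above the low doses of Coptidis and Yijung-tang. The promoter of PSMD12 is shown because it holds TGACNNNGC, the core of the antioxidant response element that NFE2L1 and NFE2L2 are known to bind, and this gene rose with 3 extracts. The capitals mark the match, from −165 to −157.
PSMD12 chr17:67366578-67366827, minus strand: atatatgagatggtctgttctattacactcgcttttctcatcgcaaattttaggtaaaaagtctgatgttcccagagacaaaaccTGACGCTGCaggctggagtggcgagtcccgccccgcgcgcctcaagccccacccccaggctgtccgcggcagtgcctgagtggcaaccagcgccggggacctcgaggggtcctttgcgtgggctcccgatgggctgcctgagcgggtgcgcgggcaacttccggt
These letters were found in 13.3% of all promoters (16.1% of symbols) and in 15 of 44 members (34.1%), both strands counted. With Coptidis PSMD3, PSMD9, PSMD12 and PSME4 of these 15 rose, and PSMB3, PSMB9, PSMD1, PSME1, PSME2 and PSMG1 fell. The letters are not in the window of PSMD2. Of the other motifs searched, CCAAT was in 22 members (50%, beside 39.7% of symbols), the ETS site CCGGAAGT in 11 (25%, beside 4.95%), the heat shock element GAANNTTC in 1 (2.27%, beside 8.21%) and, also added after the values were seen, the gamma-activated site TTCNNNGAA in 8 (18.2%, beside 9.38%). No test was made of these shares.

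PSMD11 (chr17:32444261-32483318, plus strand), the RPN6 subunit that clamps the lid to the core, rose with more extracts than any other member, 5 of 7. With Yijung-tang it was at 161 and 156 CPM at the low dose, 168 and 162 at the medium dose and 212 and 213 at the high dose, a 1.34-fold rise (0.42, SE 0.04, adjusted p = 1.85e-10). With Bupleuri it went from 152, 155 and 164 CPM to 202, 194 and 201 (0.34, SE 0.03, adjusted p = 1.28e-11). Coptidis gave 162 and 164 against 185 and 187 CPM. The smaller rises were those with Cimicifugae, from 162, 150 and 158 to 186, 179 and 182 CPM (0.22, SE 0.03, adjusted p = 5.11e-06), and with Citri, from 157, 153 and 158 to 176, 169 and 174 CPM (0.15, SE 0.03, adjusted p = 0.0115). In each of these 5 extracts every high-dose library was above every low-dose library. With Zizyphi PSMD11 was at 157 and 157 against 157 and 162 CPM, and with Aconiti at 165, 158 and 156 against 162, 159 and 160 CPM. The rise with Citri was no longer called when Citri high-dose replicates 1 or 3, or replicate 2 of the low dose, were left out.

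PSMD1, the RPN2 scaffold of the base, moved in opposite directions. It was at 237 and 219 CPM with Coptidis at the low dose and at 191 in both high-dose libraries (−0.26, SE 0.05, adjusted p = 1.72e-05), the only non-ATPase subunit to fall in these comparisons. It rose with Yijung-tang, from 243 and 236 to 297 and 282 CPM (0.27), and with Bupleuri, from 231, 225 and 257 to 283, 269 and 281 CPM (0.22, SE 0.04, adjusted p = 1.17e-05). PSMD8, the RPN12 subunit of the lid, was at 122 and 142 CPM with Coptidis at the low dose and 173 and 182 at the high dose (0.43). PSMD13 (RPN9) rose with Yijung-tang, from 69.4 and 65.4 to 85.8 and 84.7 CPM (0.34, SE 0.10, adjusted p = 0.0252).

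**Figure D3:**
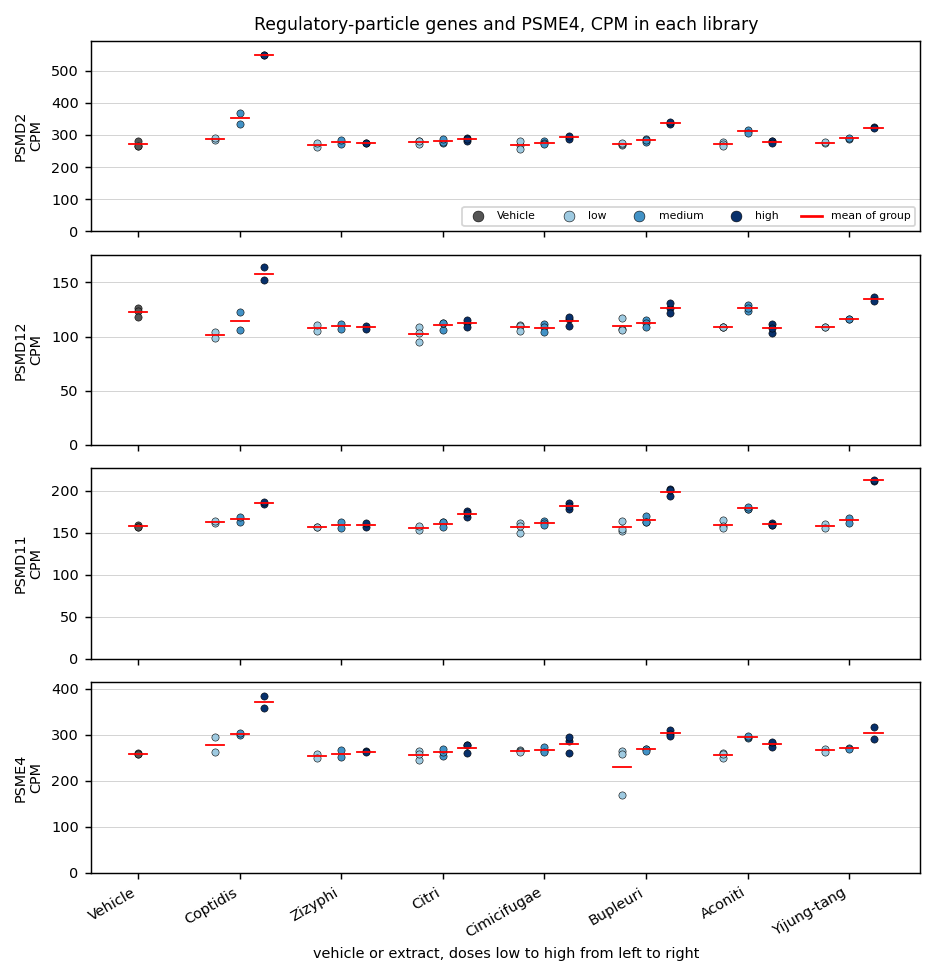
TMM-scaled CPM (linear axis from 0) of the 19S genes PSMD2, PSMD12 and PSMD11 and the activator PSME4 in each library; points are libraries coloured by dose and red bars are group means. PSMD2 with Coptidis reaches 551 and 549 CPM, PSMD11 is highest with Yijung-tang at 212 and 213 CPM, and with Aconiti the medium dose lies above both other doses.

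Among the 19S ATPases, which thread the substrate into the core, PSMC2 and PSMC4 rose with Yijung-tang, Bupleuri and Cimicifugae, and PSMC2 with Coptidis too. With Yijung-tang PSMC2 (RPT1, chr7:103344254-103369395) went from 85.9 and 86.5 to 113 and 106 CPM (0.35, SE 0.05, adjusted p = 1.46e-05), and PSMC4 (RPT3, chr19:39971005-39981441) from 126 and 124 to 153 and 159 CPM (0.33). With Cimicifugae the libraries of PSMC2 were at 84.1 to 85.2 CPM at the low dose and 94.3 to 96.5 at the high dose (0.17, adjusted p = 0.0141). Those of PSMC4 were at 123 to 127 and 133 to 150 CPM (0.18, adjusted p = 0.00892), and neither gene overlapped between doses. PSMC3 (RPT5) fell with Coptidis (−0.29) and Aconiti, where it went from 113, 111 and 111 to 95.5, 98.5 and 99.9 CPM (−0.19, adjusted p = 0.0183). Its fall with Bupleuri (−0.15) was not kept without the third low-dose library (0.01, adjusted p = 0.944).

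In the 20S core 2 of 7 alpha and 3 of 7 constitutive beta genes passed the test with Coptidis, beside 2 of 6 ATPases and 9 of 11 non-ATPases of the 19S particle. Of all genes tested 60.2% passed, so the shares in the core and the ATPases were below that of all genes. None of the 7 alpha genes rose and 2 fell, PSMA3 (−0.34) and PSMA6 (−0.27). Of the 7 constitutive beta genes PSMB2 (−0.32) and PSMB3 (−0.34) fell, and PSMB7, which carries the trypsin-like site, rose from 119 and 136 to 141 and 155 CPM (0.22, adjusted p = 0.0351). PSMB2, a subunit without an active site, went the other way with Yijung-tang, from 136 and 134 to 162 and 167 CPM (0.29). With Coptidis it went from 134 and 137 to 110 and 108 CPM. PSMB5, the target of clinical proteasome inhibitors, was at 377 and 420 CPM with Coptidis at the low dose and 393 and 428 at the high dose, which overlap (0.04, SE 0.09, adjusted p = 0.702). With Yijung-tang PSMB5 was at 420 and 417 against 481 and 488 CPM, without passing the test (0.21, SE 0.09, adjusted p = 0.179).

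With Yijung-tang the constitutive genes were higher as a body. Of the 31 constitutive 20S and 19S genes 11 passed the test, all higher (3.98% of all genes rose), with a median log2 fold change of 0.21. In each high-dose library 30 of the 31 lay above the low-dose mean. The summed level of the 31 was 4754 and 4771 CPM at the low dose, 4958 and 5034 at the medium dose and 5532 and 5565 at the high dose, with no overlap. Without Yijung-tang low-dose replicate 2, 8 of the 48 members were called in place of 13. The count was 23 with offsets for GC content and length and 33 when the set was fitted alone.

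With Bupleuri the same body of genes depended on the third low-dose library. In all libraries 8 of the 31 rose and 1 fell (20.2% and 20% of all genes), with a median of 0.02. Without that library 22 rose and none fell (17.8% and 17.4%), the median was 0.21, and 31 of 31 log2 fold changes were above 0. By role, 5 of 7 alpha genes, 5 of 7 beta genes, 3 of 6 ATPases and 9 of 11 non-ATPases then rose. PSMA7 shows the pattern, at 262, 272 and 458 CPM at the low dose, 272 to 280 at the medium dose and 326, 330 and 340 at the high dose. The third library was the highest of all 9, and without it the high dose was above the others (0.31). PSMB5 turned from −0.05 to 0.15 (adjusted p = 0.0133) in the same way.

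With Cimicifugae 5 of the 31 rose (median 0.11, 4.41% of all genes rose) and with Citri 1 (median 0.08, 0.252%). The median of the 31 over the low-dose mean was 0.06, 0.09 and 0.17 in the high-dose libraries of Cimicifugae, with 29, 29 and 31 genes above 0, and 0.05, 0.05 and 0.12 in those of Citri. These values were smaller than with Yijung-tang at the same dose in µg/mL, in another set. Calls with Cimicifugae went to 1 when replicate 1 of the high dose or replicate 2 of the low dose was left out and to 3 without the third replicate of either dose, and to 16 with GC and length offsets or when the set was fitted alone.

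**Figure D4:**
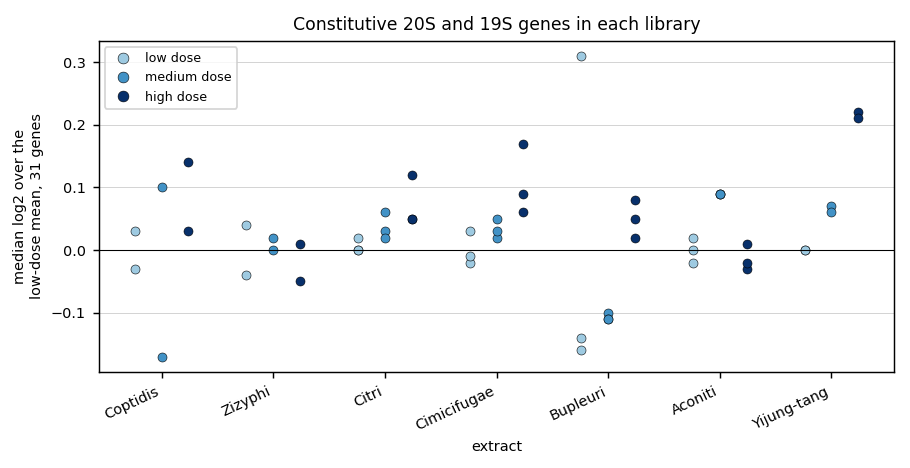
Median log2 ratio of the 31 constitutive 20S and 19S genes over the mean of the low dose, in each library of 7 extracts; points are libraries coloured by dose. Yijung-tang ends at 0.22 and 0.21, Aconiti peaks at the medium dose (0.09 in each of 3 libraries), and the third Bupleuri low-dose library stands at 0.31.

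The other activators did not follow PA28. PSME4 (PA200, chr2:53864067-53970840, minus strand) rose with Coptidis, from 295 and 262 to 384 and 358 CPM (0.41, SE 0.09, adjusted p = 1.23e-04). With Bupleuri it went from 264, 258 and 169 to 311, 302 and 298 CPM (0.40, SE 0.07, adjusted p = 2.67e-05), and the low value is again the third library, without which the log2 fold change was 0.22. PSME3 (PA28 gamma), the nuclear relative of PSME1 and PSME2, rose with Yijung-tang, from 239 in both libraries to 274 in both (0.20), and with Bupleuri by 0.11. PSMF1, the inhibitor PI31, fell with Coptidis (−0.20) and rose with Yijung-tang (0.12).

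Of the 7 assembly chaperones 1 rose and 1 fell with Coptidis (30.9% and 29.3% of all genes). PSMG1, which pairs with PSMG2 to build the alpha ring, fell with Coptidis from 68.4 and 67.9 CPM at the low dose through 58 and 62 at the medium dose to 43 and 46.9 at the high dose, 1.52-fold (−0.60, SE 0.10, adjusted p = 5.39e-07). PSMD9, a chaperone of the ATPase ring, rose with Coptidis from 27.7 and 32.5 to 39.8 and 45.4 CPM (0.51, SE 0.10, adjusted p = 3.94e-05). With Bupleuri PSMD10 (gankyrin) went from 34.5, 34.1 and 43 to 31, 28.3 and 29.5 CPM (−0.33, or −0.21 without the third library). PSMG2 was at 36, 37.2 and 54.3 CPM at the low dose and 35.1, 34.4 and 33.9 at the high dose (−0.30). The third library was again the highest, and without it PSMG2 was not called (−0.09, adjusted p = 0.313).

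PSMC3IP, which acts in meiotic recombination and is known for binding PSMC3, was at 12.7 and 10.2 CPM with Coptidis at the low dose, 7.55 and 8.98 at the medium dose and 5.08 and 3.74 at the high dose. The doses did not overlap, and the fall was 2.62-fold (−1.39, SE 0.15, adjusted p = 1.01e-10). MLX, which overlaps PSMC3IP, held 474% of its counts, so its own level is uncertain. PSME3IP1 fell with Coptidis (−0.29) and Aconiti (−0.15, adjusted p = 0.00917).

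A fixed panel of genes from different roles was read in every extract, as log2 fold change from low to high dose. PSMA1, an alpha subunit, ranged from −0.04 with Zizyphi to 0.22 with Yijung-tang and passed the test in none of the 7 extracts. PSMC1 (RPT2) ranged from −0.06 with Aconiti to 0.21 with Yijung-tang and also passed in none. PSMB5 lay between −0.07 and 0.21 with no call. Without the third Bupleuri low-dose library all of these were called higher with Bupleuri: PSMA1 at 0.21 in place of 0.04, PSMC1 at 0.26 in place of 0.07 and PSMB5 at 0.15 in place of −0.05. PSMB8 lay between −0.12 and 0.02 in the 5 extracts without a call, PSME1 between −0.13 and −0.06, and PSMG1 between −0.16 with Bupleuri (0.06 without that library) and 0.26 with Yijung-tang. PSMD1 lay between −0.07 with Aconiti and 0.12 with Citri where it was not called.

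At the medium dose of Coptidis 2 of 48 members rose and 7 fell against the low dose (14.7% and 14.2% of all genes), against 12 and 15 at the high dose. The 2 were PSMD2 (0.29) and PSMD12 (0.18), and among the 7 were PSMB9 (−1.41), PSMB8 (−0.39), PSME2 (−0.37), PSME1 (−0.34) and PSMC3IP (−0.48). These log2 fold changes were smaller in size than those at the high dose, and PSMB10, at 12.2 and 15.8 CPM, overlapped its low dose. The count was 5 without Coptidis low-dose replicate 3. With Aconiti the medium dose was the one that differed: 8 members rose and none fell (4.86% and 5.64% of all genes). They were PSMD12 (0.21), PSMD2 (0.20), PSMD3 (0.19), PSMD11 (0.17), PSMD14 (0.16), PSMC2 (0.15), PSMD1 (0.13) and PSME3 (0.09). PSMD2 was at 277, 272 and 267 CPM at the low dose, 312, 316 and 306 at the medium dose and 282, 282 and 274 at the high dose. PSMD12 was at 109 in each low-dose library, 129, 124 and 126 at the medium dose and 112, 103 and 108 at the high dose. In both genes the medium dose lay above the others without overlap. Calls with Aconiti fell to 4 or 5 without replicate 1 or 2 of either dose or medium-dose replicate 3, and were 18 with GC and length offsets. With Bupleuri PSME3 rose (0.11, 1.33% of all genes rose and 1.85% fell), and this was not called without the third low-dose library. Leaving out low-dose replicate 1 or 2 of Bupleuri, which raises the weight of the third library, gave 29 and 26 calls, and leaving out any 1 of the medium-dose libraries gave 0. Zizyphi, Citri, Cimicifugae and Yijung-tang had no member called at the medium dose by edgeR or DESeq2. The members with an unadjusted p under 0.05 numbered 0, 2, 0 and 2 (0.006%, 0.006%, 0.054% and 0.018% of all genes called).

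Extracts of a set could be compared at their high doses. Cimicifugae and Citri, both at 500 µg/mL, had no member called by edgeR or DESeq2, against 4.07% of all genes. At an unadjusted p under 0.05 there were 4. Coptidis at 280 µg/mL and Zizyphi at 500 µg/mL differ in dose. Of 48 members 11 were higher and 16 lower with Coptidis (33% and 31.4% of all genes), with PSMD2 at 1.00 and PSMD8 at 0.64, and PSMB9 at −2.55, PSMC3IP at −1.57, PSME2 at −1.06 and PSMB10 at −0.97. Bupleuri at 280 and Aconiti at 500 µg/mL also differ in dose: 16 members were higher with Bupleuri and 6 lower (16.9% and 15.7%). The 16 were all constitutive 20S or 19S genes, out of 31, and PSMB9 was lower by a log2 fold change of −0.67. The difference of the dose effect itself was called for 20 members between Coptidis and Zizyphi (7 above and 13 below, beside 24.8% and 24.5% of all genes). It was called for 11 between Bupleuri and Aconiti (7 and 4, beside 12.9% and 11.4%), or 23 above and 3 below without the third library (14.2% and 12%). Between Cimicifugae and Citri it was called for none by edgeR or DESeq2, nor at an unadjusted p under 0.05 (0 members), beside 1.33% of all genes.

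Against the vehicle, set and treatment cannot be told apart. At the high dose Coptidis differed in 31 members (34.5% of all genes higher, 33% lower), led by PSMB9 (−2.70), PSMC3IP (−1.74), PSMD2 (1.02), PSME2 (−1.02), PSMB8 (−1.01), PSMG1 (−0.79) and PSME1 (−0.64). Bupleuri had 17 members higher and 8 lower (19.9% and 19.1%), and Yijung-tang 15 higher and 3 lower (9.49% and 7.84%), with 12 of 31 constitutive genes higher. The low dose of Coptidis was itself below the vehicle in 13 of 31 constitutive genes and above it in 3 (median −0.14). Of all genes 16.1% were below and 17.1% above. The constitutive sum was 4807 to 4972 CPM with the vehicle, 4388 and 4653 with Coptidis at the low dose and 4755 and 5006 at the high dose, so the Coptidis high dose overlapped the vehicle.

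Coptidis and Bupleuri share no library and no vehicle in the comparison of high with low dose. Across the 48 members their log2 fold changes had a Pearson r of 0.82 (0.796 without the third Bupleuri low-dose library), beside 0.447 across all 16675 genes, as a description across genes that are not independent replicates. PSMB9, PSME2, PSMB8 and PSME1 were low in both and PSMD2 and PSMD12 high in both. The Pearson r across members was 0.803 between Bupleuri and Yijung-tang (0.834 without the third Bupleuri low-dose library) and 0.583 between Coptidis and Yijung-tang. All these values include the immunoproteasome and PA28 genes, already singled out for their fall. PSMB9 was the lowest member with Coptidis (−2.12) and with Bupleuri (−1.1, or −0.9 without that library). No r was computed for the constitutive genes alone. Whether they were more alike between extracts than all genes was therefore not tested.

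**Figure D5:**
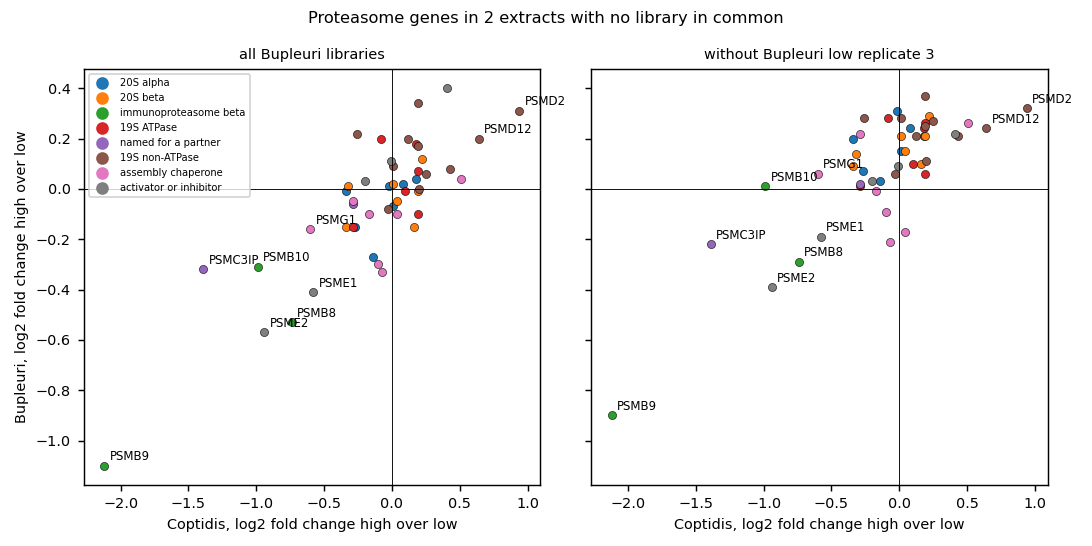
Log2 fold change from low to high dose with Coptidis (x axis) against Bupleuri (y axis) for 48 proteasome genes coloured by role, with all Bupleuri libraries (left) and without the third of its low-dose libraries (right). PSMB9 lies at −2.12 and −1.10 on the left, PSMD2 at 0.94 and 0.31, and on the right the cloud of constitutive genes lies above 0 on the y axis.

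Other genes of the pathway were read from lists of known roles. Of 10 further 26S parts and helpers, 5 rose and 3 fell with Coptidis, where 30.9% of all genes rose and 29.3% fell, among them POMP, the maturation factor of the core (0.31), ECPAS (0.28), and the 19S deubiquitinase UCHL5 (−0.52). With Yijung-tang 3 of the 10 rose and none fell (3.98% and 3.31% of all genes), with the ubiquitin receptor ADRM1 at 0.40. Of 5 regulators of proteasome genes, 3 rose and 1 fell with Coptidis. MAFG, a partner of NFE2L1, rose from a mean of 93.5 to 218 CPM (1.22), NFE2L1, the factor known to induce proteasome genes, rose by 0.58, and NGLY1, which processes it, by 0.44. DDI2, the protease that cuts NFE2L1, fell (−0.54). With Bupleuri MAFG rose by 0.57, and by 0.71 without the third low-dose library. Without that library 1 of the 5 regulators rose and 2 fell with Bupleuri (17.8% and 17.4% of all genes), with a median of 0.05. NFE2L1 rose by 0.23 in all Bupleuri libraries but was not called without that library (0.05, adjusted p = 0.37). With Yijung-tang MAFG alone of the 5 rose (0.24).

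Of 10 shuttle and p97 genes, which carry tagged proteins to the proteasome, 6 rose and 1 fell with Coptidis (30.9% and 29.3% of all genes), 6 rose and none fell with Bupleuri (20.2% and 20%; 7 rose without the third low-dose library), and 6 rose and none fell with Yijung-tang (3.98% and 3.31%), with VCP itself at −0.18 with Coptidis and 0.17 with Yijung-tang. SQSTM1, an autophagy receptor for tagged protein on the list of proteotoxic stress, rose with Bupleuri (1.83), Coptidis (1.64), Cimicifugae (0.81) and Yijung-tang (0.80). It does not stand for its list of 6 genes. Without the third Bupleuri low-dose library 1 of the 6 rose and 0 fell with Bupleuri (17.8% and 17.4% of all genes). The median of the 6 was 0.04. Counts of this list with Coptidis, Cimicifugae and Yijung-tang are not reported here. UBA6, an E1 enzyme that activates ubiquitin, rose by 0.71 with Coptidis and 0.38 with Bupleuri (0.28 without the third low-dose library). The partners of the immunoproteasome in antigen presentation did not follow its subunits as a list: with Coptidis B2M (0.50) and TAP1 (0.21), whose gene lies within the annotated span of PSMB9, rose, and TAPBP (−0.35) fell. Zizyphi and Citri had no call on any of these 6 lists, where 0.006% and 0.78% of all genes were called.

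Markers of the cells moved with the same comparisons. With Coptidis 8 of 10 HepG2 markers fell and 1 rose (29.3% and 30.9% of all genes). Their sum was 46400 and 42630 CPM at the low dose and 27760 and 26790 at the high dose. With Yijung-tang 6 fell and 1 rose (3.31% and 3.98% of all genes). The sum was 46210 and 44440 CPM at the low dose and 40110 and 38950 at the high dose. With Bupleuri 7 fell (20% of all genes), or 6 without the third low-dose library (17.4%). The sum was 47000, 45270 and 32840 CPM at the low dose and 40630, 38380 and 38910 at the high dose. The lowest of these is the third low-dose library, and the other low-dose libraries lay above every high-dose library. The summed level of the markers of other cells, most of it CD68, was 60.52 and 65.4 CPM at the low dose and 91.63 and 89.77 at the high dose with Coptidis, and 44.91 and 48.63 against 59.08 and 64.98 with Yijung-tang. With Bupleuri it was 47.51, 47.22 and 32.61 CPM, the last in the third library, against 58.66, 61.23 and 59.01. Most of these markers did not follow the sum. Without that library 1 of the 6 tested rose and 2 fell with Bupleuri (17.8% and 17.4% of all genes). Of their log2 fold changes 2 were above 0, and the median was −0.11. Such counts with Coptidis and Yijung-tang are not reported here. The part of these shifts in the proteasome results was not tested.

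Banhasasim-tang had 1 library at each dose, so its ratios have no replicate check. Over its own low dose 21 members were more than 1.5-fold higher and 4 lower at the high dose, beside 30.8% and 28.9% of all genes, and the median of the 31 constitutive genes was 0.65. PSMB2 was at 54.9 CPM in the low-dose library, 152 in the medium-dose library and 150 in the high-dose library, while PSMD4, the RPN10 ubiquitin receptor, was at 298, 108 and 108 CPM. Over the mean of the Yijung-tang low dose, in the same set, no member was past 1.5-fold at the high or the medium dose (6.75% of all genes higher and 6.54% lower at the high dose, 3.54% and 4.94% at the medium dose), and none between its high and medium doses (6.31% and 4.34%). The differences over its own low dose thus rest on that library alone.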

How the data were processed

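The authors deposited a gene table of expected counts, which were taken as raw. RSEM 1.3.3, STAR 2.7.3a, Trim Galore 0.6.5, FastQC 0.11.9 and the build GRCh38 are listed in the submitters' processing notes. The sources used here do not name the annotation release. Of 267 columns, 207 matched no sample of these groups and were left unused. Positions are from GENCODE 29 on GRCh38. Of the values 8.75% were not whole, and counts were rounded. The 57 libraries of 22 replicated groups were fitted together with edgeR 4.0.16 (glmQLFit, glmQLFTest, TMM scaling, filterByExpr, 35 residual degrees of freedom) in R 4.3.3, which kept 16675 genes. The filter left out 44000. P-values were adjusted over all genes in each of 34 comparisons, and the test was checked on simulated data. Replicates all differed beyond sampling noise, so each was counted. RSEM divides reads that match several genes, and 44 pseudogene rows of the members held 0.192% of their counts. Banhasasim-tang was described by ratios with a prior count of 2.

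Genes were named by a rule: per extract, among called members, up to 3 rises and 3 falls of greatest size with at least 5 CPM, a panel of 7 genes, and members called against most of their role. The members and lists were chosen with earlier results of these data known. Alternatives were DESeq2 1.42.0, RLE scaling, library totals, no filter, a replicate block, separate fits, GC and length offsets, and leaving out libraries. Among comparisons of groups with 3 libraries, replicate numbers paired the samples only for Cimicifugae against Citri at the high dose (correlations of deviations of 0.131 to 0.362 in every one of 3 pairs). This is from the data and not the labels, and the block changed no call there. Where both groups have 2 libraries there is a single correlation. From low to high dose it was 0.276 for Coptidis, 0.539 for Zizyphi and 0.162 for Yijung-tang. From low to medium dose it was −0.1, 0.133 and −0.0698, and 0.335 for Coptidis against Zizyphi at the high dose. With the block, Coptidis high against low gave 28 calls and Yijung-tang 12. Some genes of the pathway lists are not reported here.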

Additional observations from a re-analysis of the deposited data

Results flagged for a closer look

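The change from low to high dose differed between the extracts of a set, by a test of the difference itself (edgeR, adjusted p under 0.05), for the following named genes. The values are the log2 fold change of the first extract minus that of the second. Between Coptidis and Zizyphi, which differ in dose, the immunoproteasome and PA28 genes differed by −2.02 (PSMB9), −0.93 (PSME2), −0.88 (PSMB10), −0.62 (PSMB8) and −0.50 (PSME1). The 19S genes differed by 0.91 (PSMD2), 0.64 (PSMD12), 0.17 (PSMD11), −0.29 (PSMD1) and −0.27 (PSMC3). The chaperones PSMD9 and PSMG1 differed by 0.49 and −0.60, the activator PSME4 by 0.37, and PSMC3IP and PSME3IP1 by −1.32 and −0.29. Zizyphi had no member called between its own doses.

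Between Bupleuri and Aconiti, which also differ in dose, the differences were −0.89 (PSMB9), −0.55 (PSMB8), −0.33 (PSME2), 0.34 (PSMD11), 0.29 (PSMD1), 0.27 (PSMD2) and 0.22 (PSMD12). Without the third low-dose library of Bupleuri they were −0.68 for PSMB9, −0.30 for PSMB8, 0.38 for PSMD11, 0.36 for PSMD1, 0.28 for PSMD2 and 0.26 for PSMD12, and PSME2 was no longer called.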

How the results depend on the processing

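Counts are of members called, first as reported. The causes of the shifts were not tested, and the library totals limit PSMB9 to 11 and 22 counts in the Coptidis high-dose libraries. For high against low dose, Citri went from 1 to 2 with DESeq2, RLE scaling and the replicate block, 4 with GC and length offsets, 0 with no filter and 6 in a separate fit. Cimicifugae went from 5 to 16 with offsets, 2 with no filter and 16 in a separate fit, Aconiti from 3 to 7 with offsets and 0 in a separate fit, and Yijung-tang from 13 to 23 and 33. For medium against low dose, Bupleuri went from 1 to 10 with DESeq2, 2 with library totals, 15 with no filter, 3 with the replicate block and 0 in a separate fit, Aconiti from 8 to 18 with offsets, 5 with no filter and 4 in a separate fit, and Yijung-tang from 0 to 1 in a separate fit.

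Without Bupleuri low-dose replicate 3 in the whole fit, high against low dose gave 4 for Citri, 13 for Cimicifugae, 32 for Bupleuri, 6 for Aconiti and 25 for Yijung-tang. Medium against low gave 14 in place of 9 for Coptidis, 0 for Bupleuri and 15 for Aconiti. High against vehicle gave 9 for Zizyphi, 9 for Citri, 19 for Cimicifugae, 17 for Aconiti and 31 for Yijung-tang. Low against vehicle gave 9, 16, 12, 10, 8 and 4 for Zizyphi, Citri, Cimicifugae, Bupleuri, Aconiti and Yijung-tang. Cimicifugae against Citri gave 2, and the difference of dose effects between Bupleuri and Aconiti 26.

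With offsets, Cimicifugae against Citri went from 0 to 2 and Bupleuri against Aconiti at the high dose from 22 to 34. High against vehicle went to 1 for Zizyphi, 8 for Citri, 13 for Aconiti and 31 for Yijung-tang, and low against vehicle to 1 for Zizyphi, 4 for Citri, 11 for Bupleuri and 2 for Aconiti. The differences of dose effects went to 1 for Cimicifugae and Citri and 21 for Bupleuri and Aconiti. In separate fits, Cimicifugae against Citri gave 2 and Bupleuri against Aconiti 12. High against vehicle gave 18, 13, 21, 26 and 38 for Zizyphi, Citri, Cimicifugae, Aconiti and Yijung-tang, and low against vehicle 6, 19, 20, 0, 10 and 8 for Zizyphi, Citri, Cimicifugae, Bupleuri, Aconiti and Yijung-tang. The differences of dose effects gave 1 and 7. Zizyphi against vehicle went from 2 to 1 at the high and the low dose with RLE scaling, library totals and the replicate block, and Aconiti high against vehicle from 8 to 5 with no filter. The replicate block changed no other count by over 1.5 times, and with crossed numbers Coptidis medium against low stayed at 9. Over the Yijung-tang low dose, members of Banhasasim-tang past 1.5-fold went from 25 to 0 at both doses, and 0 between its high and medium doses.

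Leaving out each library in turn gave, for high against low dose, 0 to 1 (Citri), 1 to 5 (Cimicifugae), 17 to 32 (Bupleuri), 1 to 3 (Aconiti) and 8 to 11 (Yijung-tang). Medium against low gave 5 to 9 (Coptidis), 0 to 29 (Bupleuri) and 4 to 6 (Aconiti), and Bupleuri minus Aconiti 10 to 26. High against vehicle gave 0 to 2 (Zizyphi), 2 to 4 (Citri), 6 to 9 (Cimicifugae), 5 to 7 (Aconiti) and 9 to 14 (Yijung-tang). Low against vehicle gave 14 to 20 (Coptidis), 0 to 1 (Zizyphi), 5 to 10 (Citri), 1 to 5 (Cimicifugae), 5 to 24 (Bupleuri), 2 to 4 (Aconiti) and 0 to 1 (Yijung-tang). Where this left 1 library in a group, it was assumed to vary like the other groups. Signs turned for PSMB5 with Bupleuri from low to high dose (0.13 with offsets, −0.14 to 0.15 when each library was left out, with 0.15 without low-dose replicate 3), PSMC3 with Bupleuri (−0.22 to 0.01, with 0.01 without it), PSMC1 in Bupleuri low against vehicle (−0.15 without it), PSMB5 in Coptidis high against vehicle (0.10 with offsets) and PSMA1 in Coptidis low against vehicle (0.13 with offsets). All other counts were within 1.5 times of those reported under every alternative run.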
